A study of Oryzias latipes with 2 samples.

Results

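Keratin genes and tp63 were followed across the epidermal cells of adult medaka skin. The set held 8 of the 23601 features of the data: the keratin genes krt4 (ENSORLG00000016561), krt5 (ENSORLG00000001350), krt8 (ENSORLG00000001392), krt94 (ENSORLG00000012662), krt97 (ENSORLG00000002594), krtt1c19e (ENSORLG00000020338) and cyt1 (ENSORLG00000019717), and tp63 (ENSORLG00000015665). They were taken by symbol, and each symbol matched 1 feature. Their levels were read in cells that hold the epithelial adhesion gene epcam, ordered by UMIs (unique molecular identifiers, each standing for 1 captured transcript molecule) of itgb4 and ITGA2 towards the basal end and of evpla towards the superficial end. Cells with CRABP1 UMIs and cells with markers of other lineages were read beside them.

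The libraries came from skin and scales of adult fish of the HdrR strain of medaka (Oryzias latipes), male and female, which the labels call wild-type and of the southern phenotype. Cells were freed with TrypLE and sorted after Draq5 staining of nuclei. The series' design text says that pigment cells were enriched by GFP and mCherry signals. Neither the transgenes behind these signals nor the gates are known from the sources used here, so the number of cells in a class is no measure of its share of the tissue. Both libraries, called run 1 and run 2, carry the same labels and form 1 group. The labels do not state separate animals for them, so every p-value measures only the spread between these 2 libraries.

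Keratins build the intermediate filaments of epithelial cells, in which a type I keratin pairs with a type II keratin. In mammals KRT5 is a type II keratin of the basal layer of stratified epidermis, while KRT8 pairs with KRT18 in simple epithelia. In zebrafish, krtt1c19e is known as a type I keratin gene of basal epidermal cells, krt4 as a gene of the surface layer, and cyt1 as a type I cytokeratin gene. tp63 encodes the p53-family transcription factor p63, which stratified epithelia need to form and to keep their basal cells. Integrins β4 and α2, encoded by itgb4 and ITGA2, bind basal cells to the matrix below, envoplakin, encoded by evpla, belongs to the desmosomes and cornified envelope of upper cells, and CRABP1 binds retinoic acid.

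Run 1 gave 4335 cells after filtering and run 2 gave 553, with medians of 4149 and 9791 UMIs, and the runs shared 0 barcodes. Cells with at least 2 epcam UMIs and under 3 CRABP1 UMIs, called epcam+ here, numbered 948 and 171. Of these, 246 and 92 were basal-marked (at least 2 UMIs of itgb4 and ITGA2 together, at most 1 of evpla), 152 and 12 were superficial-marked (at least 2 of evpla, at most 1 of the others), 548 and 67 held at most 1 UMI on either side, and 2 and 0 held at least 2 on both. These classes are named by marker genes and are not cell type calls. The 7 matched epithelial markers other than epcam and evpla, which cut the classes, summed to between 4379 and 13819 CPM (UMIs of the gene per 1000000 UMIs of the summed class) in the 3 large epcam+ classes. In cells with T or NK cell markers they summed to 30.7 and 17.1 CPM. Myeloid markers also summed to between 1835 and 3382 CPM over 6 genes in the 3 classes, against 4936 and 4220 CPM in myeloid-marked cells. Of these 6, lyz was at 0 in 5 of the 6 epcam+ sums and in both myeloid-marked sums, and only 2 of the 6 markers had a UMI in superficial-marked cells of run 2, where CSF3R, MPEG1, lyz and spi1b were at 0. Their part in the levels below was not tested. Library preparation captured transcript 3′ ends, so CPM of UMIs are compared between genes here without scaling by length. Intervals are exact 95% intervals that cover counting error only, and reads may be shared between closely similar keratin genes.

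The superficial-marked sum of run 2 rests largely on 1 cell. Of its 12 cells, 1 held 157067 of 267910 UMIs, 80.3% of the krt5 UMIs and all 121 krtt1c19e UMIs, with 2 evpla UMIs. Without that cell the remaining 11 held 110843 UMIs. Levels and ratios of this sum that the cell moves by over 1.5 times are given without it as well.

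The keratin genes divided along the axis from basal-marked to superficial-marked cells. cyt1, krtt1c19e and krt8 were higher in basal-marked cells, and krt97, krt4 and krt94 were higher in superficial-marked cells. krt5, by far the most abundant of the 8 in all 3 epcam+ classes, and tp63 did not pass the test. In edgeR's quasi-likelihood test over all genes, with the run as a block, genes counted as called when the p after Benjamini-Hochberg adjustment was below 0.05 and the fitted log2 difference was 1 or more in size. By this rule 3 of the 8 were called higher and 3 lower in basal-marked cells, where 15.9% of 7798 tested genes were called higher and 12.1% lower, or 28% in either direction. Both marker sets that cut the classes are separate from the 8.

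cyt1 had the widest gap. It stood at 3185 CPM in basal-marked cells in run 1 and 6098 CPM in run 2, against 5.12 CPM (9 UMIs) and 7.47 CPM (2 UMIs) in superficial-marked cells. Both basal-marked sums lay far above both superficial-marked sums, with ratios of 622 (interval 328 to 1361) in run 1 and 817 (226 to 6747) in run 2 (log2 fold change 9.34, SE 0.29; adjusted p = 1.45e-07 by edgeR with Benjamini-Hochberg adjustment). T or NK cell-marked cells, which hold no epcam UMI, had 0 UMIs of cyt1 in run 1, where 3 UMIs would be 3.29 CPM, and 17.1 CPM (2 UMIs) in run 2. Within the basal-marked class cyt1 was widespread. After each cell was thinned to 2000 UMIs, 93.7% and 94.4% of basal-marked cells held a UMI of cyt1 (96.3% and 95.7% unthinned, at median depths of 8240.5 and 15627.5 UMIs). In T or NK cell-marked cells, at median depths of 2901 and 3847 UMIs, a UMI of cyt1 was found in 0 of 255 and 1 of 25 thinned cells.

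krtt1c19e stood at 5778 and 7730 CPM in basal-marked cells against 475 and 452 CPM in superficial-marked cells. The basal-marked sums were 12.2-fold (11.3 to 13) and 17.1-fold (14.3 to 20.6) higher (log2 fold change 3.91, SE 0.24; adjusted p = 3.75e-06 by edgeR with Benjamini-Hochberg adjustment). What krtt1c19e remained among superficial-marked cells lay in few of them. In run 1, 31 of 152 cells held a UMI, and the highest 10% of cells held 98.1% of the UMIs. In run 2 all of it lay in the deep cell, without which the level was 0 and the log2 fold change 5.20.

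krt8 was higher in basal-marked cells but low in both, at 167 and 114 CPM against 13.1 CPM (23 UMIs) and 11.2 CPM (3 UMIs). The ratio was 12.7 (8.36 to 20.4) in run 1 and 10.2 (3.43 to 49.9) in run 2, where it was 4.22 (1.42 to 20.6) without the deep cell, against 27.1 CPM (log2 fold change 3.54, SE 0.36; adjusted p = 5.92e-05 by edgeR with Benjamini-Hochberg adjustment). Unlike cyt1, krt8 was not spread over the class. UMIs of krt8 were found in 46 of 246 and 16 of 92 basal-marked cells, and the highest 10% of cells held 93.6% and 95.5% of them. On thinned counts, with the classes cut anew on them, the log2 fold change was 1.02 and was not called (adjusted p = 0.323 by edgeR with Benjamini-Hochberg adjustment).

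On the superficial side krt97 was the most restricted. It stood at 553 and 381 CPM in superficial-marked cells and at 4.67 CPM (10 UMIs) and 1.28 CPM (2 UMIs) in basal-marked cells, 119-fold (64.2 to 248) and 297-fold (80.1 to 2485) lower. Without the deep cell of run 2, which held no krt97 UMI, the superficial level there was 920 CPM and the ratio 718 (194 to 6007). The log2 fold change of basal-marked over superficial-marked cells was −7.48 (SE 0.66; adjusted p = 2.41e-05 by edgeR with Benjamini-Hochberg adjustment). Even in superficial-marked cells krt97 was found in a minority, in 54 of 152 cells of run 1 and 3 of 12 of run 2. The highest 10% of cells in run 1 held 80.4% of its UMIs.

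krt4 stood at 581 and 388 CPM in superficial-marked cells against 104 and 94.9 CPM in basal-marked cells, and without the deep cell of run 2 the superficial level there was 911 CPM. The difference was 5.58-fold (4.82 to 6.48) and 4.09-fold (3.15 to 5.29), or 9.60-fold (7.38 to 12.5) in run 2 without that cell, with a log2 fold change of −2.31 (SE 0.48; adjusted p = 0.00496 by edgeR with Benjamini-Hochberg adjustment). krt4 reached 106 of 152 superficial-marked cells in run 1 and 10 of 12 in run 2. All of the basal-marked krt4 lay in 8 of 246 and 4 of 92 cells. The call was lost when classes were cut at 1 marker UMI (log2 fold change −1.38, adjusted p = 0.0562).

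krt94 stood at 667 and 1907 CPM in superficial-marked cells, and at 4556 CPM in run 2 without the deep cell, against 210 and 320 CPM in basal-marked cells. Its log2 fold change was −2.06 (SE 0.27; adjusted p = 0.000329 by edgeR with Benjamini-Hochberg adjustment). The level rested on few cells, 69 of 152 in run 1 and 4 of 12 in run 2, where 1 cell held 290 of 511 UMIs. The call was lost without the run as a block (−2.22, adjusted p = 0.0816) and when epcam+ cells with CRABP1 were kept (−1.31, adjusted p = 0.0515).

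**Figure D1:**
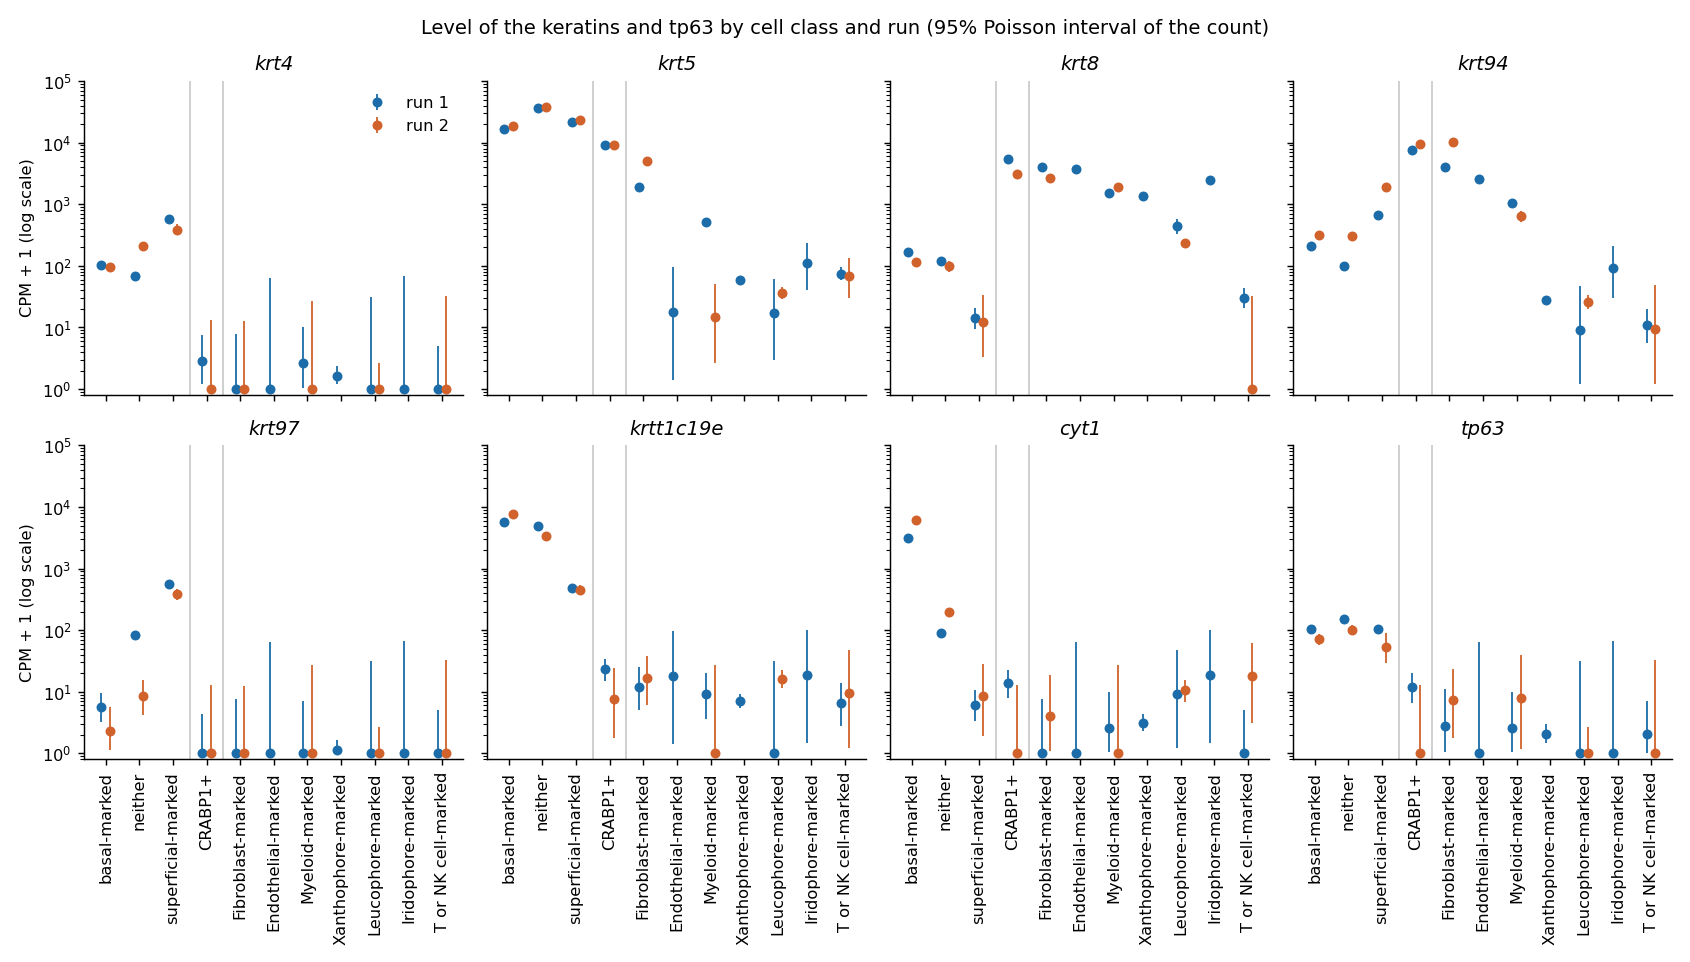
Levels of the 8 genes as CPM + 1 on a log axis, by class of cells, with 1 point per run and exact Poisson intervals for counting error. cyt1 and krtt1c19e stand highest in basal-marked cells, krt4 and krt97 in superficial-marked cells, and krt8 and krt94 in CRABP1+ and several non-epithelial classes.

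krt5 and tp63 were the members that the axis did not separate. krt5 stood at 16874 and 18565 CPM in basal-marked cells and 21488 and 22885 CPM in superficial-marked cells, a log2 fold change of −0.29 (SE 0.10) with an adjusted p of 0.0609 in edgeR. Its direction depended on the deep cell: without it the superficial-marked level of run 2 was 10880 CPM and the log2 fold change 0.36 (SE 0.59). Among all genes ordered by UMIs, krt5 was at rank 1 in run 1 and rank 3 in run 2 in basal-marked cells, and at ranks 3 and 4 in superficial-marked cells.

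tp63 stood at 104 and 69.9 CPM in basal-marked and 105 and 52.3 CPM in superficial-marked cells. The superficial-to-basal ratio was 1.0 in run 1, with an interval of 0.827 to 1.23, and 0.748 in run 2, with an interval of 0.396 to 1.31 (log2 fold change 0.15, SE 0.31; adjusted p = 0.758 by edgeR with Benjamini-Hochberg adjustment). In run 2, 11 of the 14 superficial-marked tp63 UMIs lay in the deep cell, and without it the level was 27.1 CPM and the ratio 0.387 (0.0787 to 1.16). The gene's UMIs were spread thinly. On thinned counts 14.3% and 14.6% of basal-marked, 20.04% and 10.3% of cells with neither marker, and 8.45% and 9.09% of superficial-marked cells held a UMI of tp63, against 0% of T or NK cell-marked cells in both runs.

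**Figure D2:**
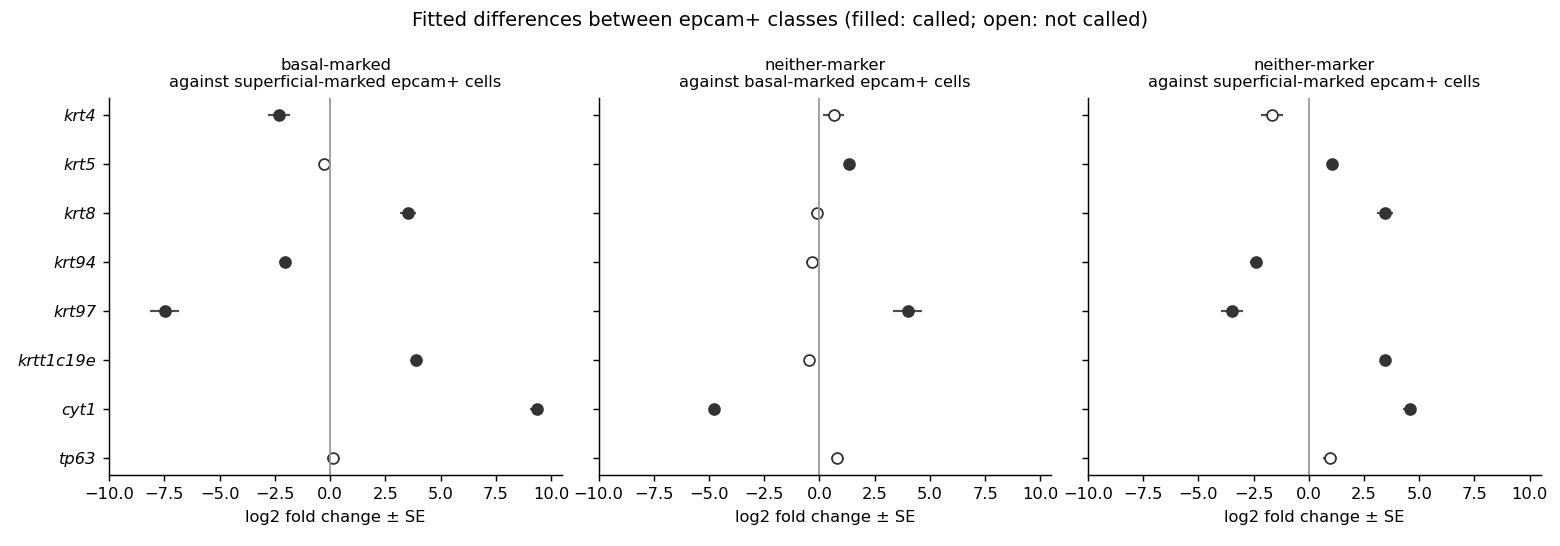
Log2 fold changes of the 8 genes between classes from edgeR's quasi-likelihood test, with bars of 1 SE and filled points for called genes. Values above 0 are higher in the class named first in each panel; krt5 and tp63 lie near 0 between basal-marked and superficial-marked cells.

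The bulk of the epcam+ cells carried neither marker set, and these held the highest krt5 of all classes. krt5 stood there at 36502 and 37739 CPM, above the basal-marked and superficial-marked levels in both runs, and was at rank 2 among all genes in both. In contrasts added after the values were seen, 3 of the 8 differed from basal-marked cells, where 8.36% of genes were called higher and 8.93% lower. krt5 was higher (log2 fold change 1.34, SE 0.10; adjusted p = 2.82e-05 by edgeR with Benjamini-Hochberg adjustment), as was krt97 (3.99, SE 0.66), and cyt1 was lower (−4.78, SE 0.21). Without the deep cell krt5 kept its size but was not called against basal-marked cells (1.33, SE 0.57; adjusted p = 0.118).

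In these cells cyt1 was low while krtt1c19e was not. cyt1 stood at 90.0 and 194 CPM, and krtt1c19e at 4853 and 3382 CPM, where its log2 fold change against basal-marked cells was −0.46 (SE 0.21) and not called. That krtt1c19e was uneven: 226 of 548 and 29 of 67 cells held a UMI, and the highest 10% of cells held 78.4% and 94.1% of it. krt97 stood at 81.2 CPM in run 1 and 7.44 CPM (8 UMIs, all in 1 cell) in run 2, between its basal-marked and superficial-marked levels in both.

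Against superficial-marked cells, 4 of the 8 were higher in cells with neither marker and 2 lower, where 6.36% of genes were called higher and 4.99% lower. krt5 (log2 fold change 1.06, SE 0.10), krt8 (3.45, SE 0.36), krtt1c19e (3.45, SE 0.23) and cyt1 (4.56, SE 0.28) were higher, and krt94 (−2.38, SE 0.27) and krt97 (−3.48, SE 0.50) lower. krt4, at 67.1 and 209 CPM, was not called (−1.66, SE 0.49; adjusted p = 0.0526 by edgeR with Benjamini-Hochberg adjustment), but was called without the deep cell (−2.05, adjusted p = 0.00116). tp63 was highest here in both runs, at 152 and 101 CPM, and missed the threshold against basal-marked (0.81, SE 0.28; adjusted p = 0.0766) and superficial-marked cells (0.96, SE 0.30; adjusted p = 0.0665). No difference of tp63 among the 3 classes was thus called. In simulated data for the basal-marked and superficial-marked comparison, the fit called 15.9% of genes changed by a log2 value of 1. A missing call therefore does not decide on differences of this size.

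Finer steps of the same order, given as a description with no test, showed where levels differed. In run 1, cyt1 went from 3453 CPM in the 214 cells with at least 8 itgb4 and ITGA2 UMIs to 1939 and 508 CPM in the 2 sets of 16 cells with 4 to 7 and 2 to 3, 66.6 CPM in the 476 cells with 0 on both sides, and 2.9 CPM in the 49 cells with 1 evpla UMI. krt97 went the other way, from 4.2 CPM at the basal end through 55.7 CPM at 0 on both sides to 486 CPM at 1 evpla UMI and 618 CPM in the 79 cells with at least 8. Most of the range of cyt1 in CPM thus lay among cells with no evpla UMI, and most of that of krt97 between cells with 0 and with 1 evpla UMI. As a fold, krt97 rose more from the basal end to 0 on both sides than from there to 1 evpla UMI. Run 2 held few cells beyond its 86 most basal and 56 unmarked ones, in which cyt1 stood at 6296 and 164 CPM.

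krt5 was highest in the middle of the order. In run 1 it stood at 17399 CPM at the basal end, 38590 CPM in the 21 cells with 1 itgb4 or ITGA2 UMI, 36752 CPM at 0 on both sides and 19638 CPM at the superficial end. In run 2 it stood at 19215 CPM at the basal end and 41364 CPM at 0 on both sides. tp63 followed a flatter course, with 107 CPM at the basal end, 154 CPM at 0 on both sides and 89.6 CPM at the superficial end in run 1. Since UMIs of the ordering genes rise with a cell's depth, the same order was read on cells thinned to 2000 UMIs. Along evpla UMIs in thinned cells of run 1, the share with a krt4 UMI went from 3.87% at 0 to 39.2% at 1, 34.1% at 2 to 3, 66.7% at 4 to 7 and 75.0% at 8 and over.

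krtt1c19e and krt94 were less regular along the order. krtt1c19e stood at 5744 CPM at the basal end and 5361 CPM at 0 on both sides in run 1, then at 497, 866, 1886 and 130 CPM from 1 evpla UMI upwards. krt94 stood at 178 CPM at the basal end, 105 CPM at 0 on both sides, and 496, 417 and 793 CPM over the 3 bins from 2 evpla UMIs upwards. The 16 cells of run 1 with 2 to 3 basal UMIs broke the order, with 1644 CPM of krt4, 1220 CPM of krt8 and only 9598 CPM of krt5. The 4 such cells of run 2 held 1101 CPM each of krt4 and krt8 and 2536 CPM of krt94, and the 7 with 1 basal UMI held 2288 CPM of krt4.

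**Figure D3:**
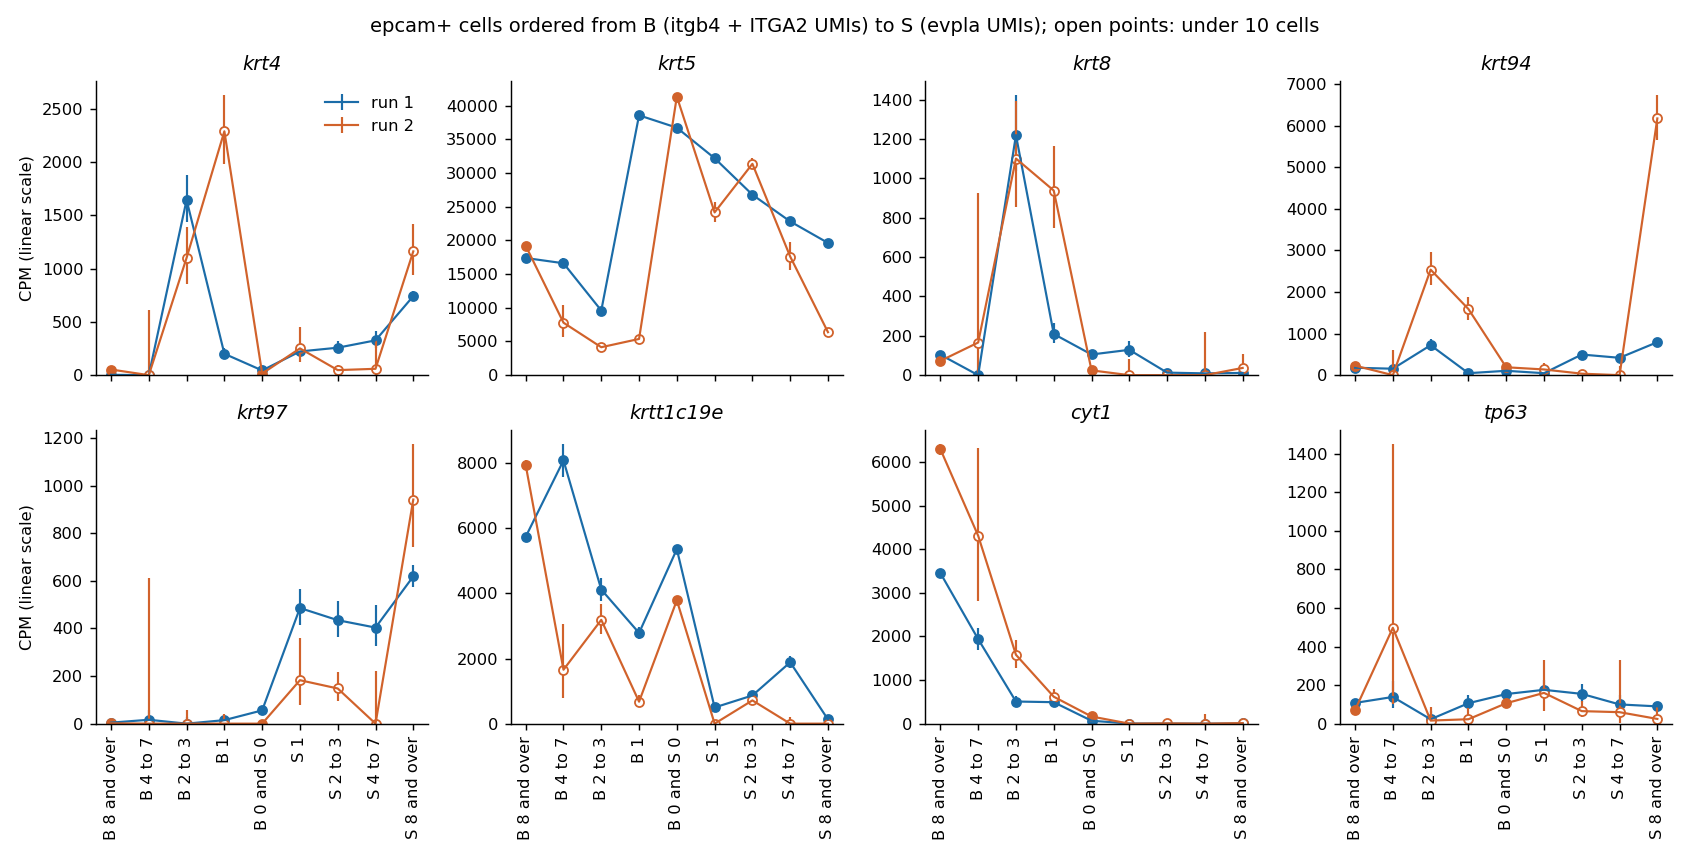
Level of each gene in CPM along the order from high itgb4 and ITGA2 UMIs through cells with 0 on both sides to high evpla UMIs, with 1 line per run and exact Poisson intervals. cyt1 is high left of the middle and krt97 right of it, krt5 is highest near the middle, and krt4 and krt8 stand out in the small bins of 1 to 3 basal UMIs; open points mark bins of under 10 cells.

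The mixture of keratin transcripts differed between the epcam+ classes, as given here by its parts with no test. The 13 keratin features of the data made up 2.65% and 3.31% of all UMIs in basal-marked cells, 4.2% and 4.23% in cells with neither marker and 2.38% and 2.60% in superficial-marked cells. In basal-marked cells krt5 supplied 63.6% and 56.1% of the keratin UMIs, krtt1c19e 21.8% and 23.3%, and cyt1 12% and 18.4%. In superficial-marked cells krt5 supplied 90.3% and 87.9%, krt94 2.80% and 7.32%, krt4 2.44% and 1.49%, krt97 2.33% and 1.46%, and krtt1c19e 2.0% and 1.73%. The run 2 shares rest on the deep cell: without it krt5 supplied 62.8% of 1920 keratin UMIs, krt94 26.3%, krt97 5.31%, krt4 5.26% and krtt1c19e 0%, and the 13 features made up 1.73% of all UMIs.

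The balance of krt5, a type II keratin, to krtt1c19e, a type I keratin, also differed between the classes. Basal-marked cells held 2.92 (2.86 to 2.98) and 2.40 (2.35 to 2.45) krt5 UMIs per krtt1c19e UMI, cells with neither marker 7.52 and 11.2, and superficial-marked cells 45.2 and 50.7. Without the deep cell, superficial-marked cells of run 2 held 1206 krt5 UMIs and 0 of krtt1c19e, a ratio of 402 when set against 3 UMIs. The features named here supply few other type I keratin UMIs in superficial-marked cells. With all cells kept, cyt1, krt18a.1, krt18a.2 and krt18b each stood below 10 CPM there. Without the deep cell of run 2, krt18b had 2 of 110843 UMIs, a level above 10 CPM, and cyt1 had 1 UMI. The type of krt94 and krt97 is not given by the files, and features without a symbol were not counted as keratins.

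**Figure D4:**
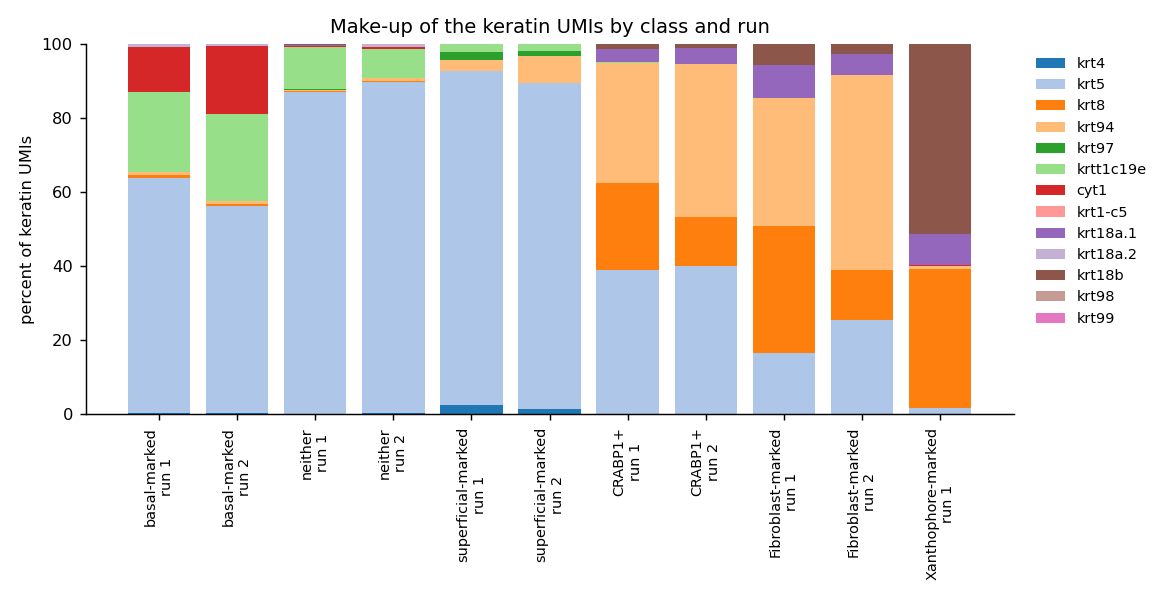
Share of each keratin in all keratin UMIs of a class, in percent, as stacked bars that start at 0, for classes and runs with enough cells. krt5 supplies most keratin UMIs in the epcam+ classes, krtt1c19e and cyt1 have their largest shares in basal-marked cells, and krt8 and krt94 have large shares in CRABP1+ and fibroblast-marked cells.

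A small set of epcam+ cells held little krt5 and far higher levels of krt8, krt4 and krt18a.2 than the rest. This set was defined after the values were seen and is given as a description, with no test. Among cells with at least 8 epcam UMIs and at least 2000 UMIs, 48 of run 1 and 9 of run 2 had under 5 krt5 UMIs per 2000. They held krt8 at 1238 and 1146 CPM, krt4 at 1550 and 2292 CPM and krt94 at 1432 and 3752 CPM. In the other 765 and 138 cells krt8 stood at 30.8 and 28.7 CPM, krt4 at 116 and 33.2 CPM and krt94 at 183 and 261 CPM.

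The krt5-poor cells also held krt18a.2, a gene of the krt18 family, at 1929 and 3277 CPM, against 0 and 0.8 CPM in the krt5-rich cells. tp63 stood at 7.6 and 5.9 CPM in the krt5-poor cells and 142 and 85.7 CPM in the krt5-rich cells. The krt5-poor cells still had epcam, at 15919 and 7712 CPM against 26797 and 17571 CPM. They fell in all classes: in run 1, 6 were basal-marked, 17 superficial-marked, 24 had neither marker and 1 had both. Summed xanthophore markers stood at 234 and 142 CPM in them against 13.3 and 1.13 CPM in the krt5-rich cells, and myeloid markers at 4947 and 2683 CPM against 2265 and 2344 CPM. Whether mixed droplets have a part in this set was not tested. A further 44 and 8 krt5-poor cells held only 2 to 7 epcam UMIs, and 43 and 7 of them were in the class with neither marker. The 44 and 8 cells held krt8 at 1045 and 298 CPM. Xanthophore markers stood in them at 1692 and 0 CPM, fibroblast markers at 822 and 37.3 CPM and myeloid markers at 1533 and 19199 CPM. Over thinned epcam+ cells, which share libraries and a fixed depth, Pearson's r of log2 krt5 and krt8 values was −0.53 over 865 cells of run 1 and −0.51 over 158 of run 2. With at least 8 epcam UMIs it was −0.52 over 813 and −0.61 over 147 cells, and over krt5-rich cells alone it was −0.17 and −0.15. That cut is made on krt5 itself and narrows its range, so it cannot show which cells the relation rests on.

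With only krt5-rich epcam+ cells kept, the members called between basal-marked and superficial-marked cells kept the direction of their differences. This alternative was chosen after the data were seen, and the share of all genes called in it is not given here. The cells were chosen by krt5, 1 of the 8, so its own values in this fit are not read. Over thinned epcam+ cells Pearson's r with krt5 was −0.25 and −0.50 for krt4 and −0.53 and −0.51 for krt8. For krt94 it was −0.24 and −0.31. With at least 8 epcam UMIs, the krt5-poor cells left out held tp63 at 7.6 and 5.9 CPM, against 142 and 85.7 CPM in krt5-rich cells. The cut thus also bears on the values of krt4, krt8, krt94 and tp63, and the fit is no separate support for their differences. Sums of at least 5 cells were used. The superficial-marked sum of run 2 held 9 cells, the deep cell among them. The log2 fold change was −6.90 (SE 0.51) for krt4, 3.28 (SE 0.69) for krt8 and −1.47 for krt94. In that fit krt4 was also higher in cells with neither marker than in basal-marked cells (3.05) and krt8 lower (−2.92), neither of which was called with all cells. Against superficial-marked cells tp63 was then higher in cells with neither marker (1.12; adjusted p = 0.0379 by edgeR with Benjamini-Hochberg adjustment) and krt8 was no longer called (0.36). Against basal-marked cells tp63 had an adjusted p of 0.0234 in edgeR, with a log2 fold change of 0.97, below the size of 1 that a call needs.

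**Figure D5:**
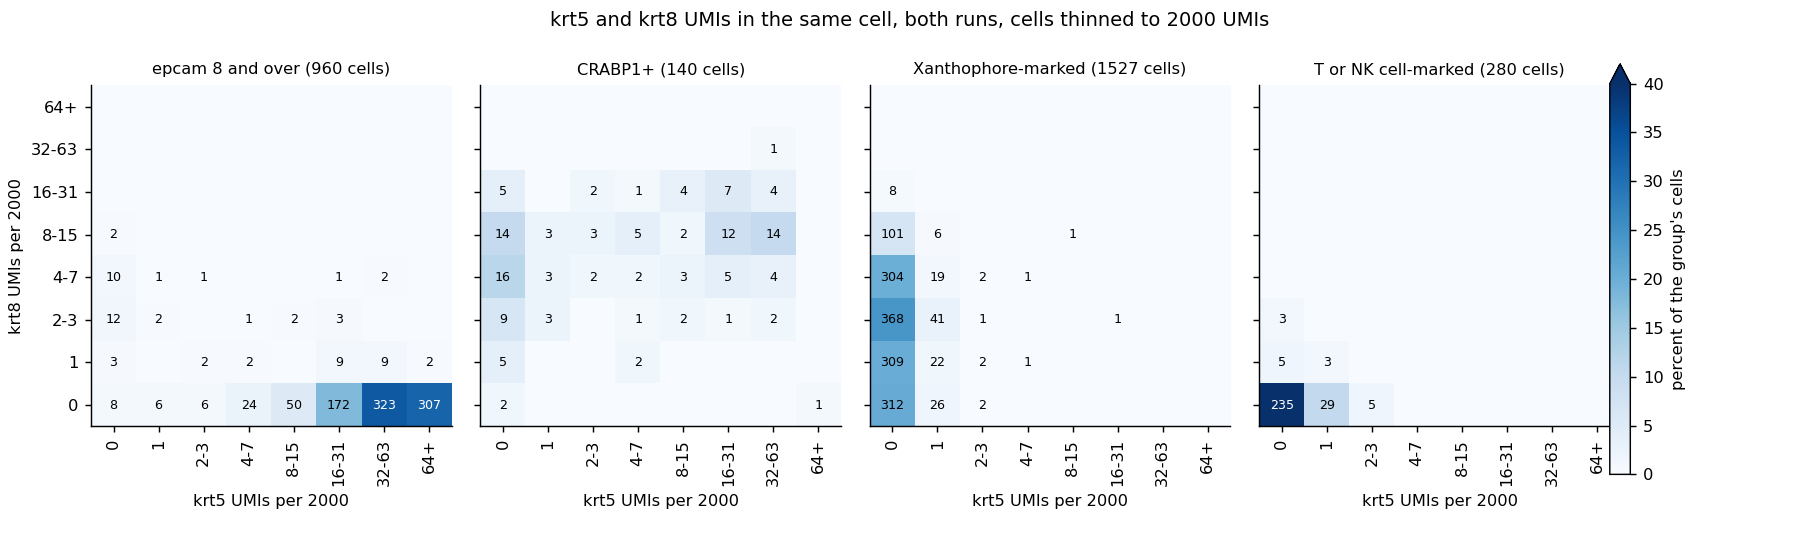
Number of cells by krt5 UMIs and krt8 UMIs per 2000 UMIs, in bins that double in width, for cells with at least 8 epcam UMIs, CRABP1+, xanthophore-marked and T or NK cell-marked cells. Most epcam+ cells hold krt5 without krt8, while CRABP1+ cells hold krt8 with a wide range of krt5.

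Of the 6 other keratin features (krt18a.1, krt18a.2, krt18b, krt98, krt99 and krt1-c5), 3 were tested between basal-marked and superficial-marked cells. All 3 were called higher in basal-marked cells, where 15.9% of tested genes were called higher. krt18a.1, of the family that pairs with krt8 in mammals, stood at 36.9 and 30.1 CPM against 3.41 CPM (6 UMIs) and 0. krt18b stood at 35.0 and 10.3 CPM against 8.53 and 7.47 CPM (fitted log2 fold change 1.69, SE 0.50; adjusted p = 0.0281 by edgeR with Benjamini-Hochberg adjustment), and lost its call without the deep cell (1.52, adjusted p = 0.0524). Without that cell the superficial-marked level of krt18b in run 2, 2 of 110843 UMIs, lay above the basal-marked 10.3 CPM. The direction in run 2 thus depended on the deep cell. krt18a.2 stood at 154 and 143 CPM against 0 and 3.73 CPM, the latter 1 UMI of the deep cell, without which it was 0. Its basal-marked UMIs lay in 4 and 3 cells.

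Genes of adhesion, envelope and transcription also differed between the 2 ends, read in lists that were chosen with earlier results known. Of the hemidesmosome and basement membrane list, the 3 tested genes other than itgb4 and ITGA2, which define the class, were all higher in basal-marked cells, with a median log2 fold change of 5.51 beside 0.20 over all genes. Of these, itga6b, integrin α6, stood at 606 and 521 CPM in basal-marked cells and 0 in superficial-marked cells, and pleca, plectin, which ties keratin filaments to hemidesmosomes, at 597 and 767 CPM against 99.5 and 26.1 CPM (fitted log2 fold change 3.56). itga3b, integrin α3, stood at 111 and 48.1 CPM against 2.27 and 0 CPM.

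Of the desmosome and envelope list, 2 of 9 tested were higher in basal-marked cells and 4 lower, with a median of −0.84. Over all tested genes 15.9% were called higher and 12.1% lower. evpla defines the class. Among the rest, ppl, periplakin, which pairs with envoplakin, was lower (−5.34), as were the transglutaminase genes TGM1 (−6.46) and tgm5l. Higher were s100a10b (3.92) and anxa1a (1.85), the latter a gene of calcium-dependent membrane binding.

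Of the epidermal regulators, 2 of 20 tested, tp63 included, were higher in basal-marked cells and 8 lower, with a median of −0.80. For this and the next lists, the share over all tested genes was 15.9% higher and 12.1% lower. grhl1, a grainyhead factor, stood at 15.4 and 1.28 CPM in basal-marked cells, 347 and 172 CPM in cells with neither marker and 305 and 306 CPM in superficial-marked cells. It was lower in basal-marked cells by the test (−5.27), as were foxq1a (−2.64) and znf750 (−4.98), a regulator that acts downstream of p63 in mammals. ehf, an ETS factor, and IKZF2 had 0 UMIs in both basal-marked sums, and stood at 143 and 22.4 CPM and at 75.1 and 52.3 CPM in superficial-marked cells. tp73, a p53-family relative of tp63, was higher in basal-marked cells (1.96), as was tfap2a (1.83), an AP-2 factor. Of the 9 Notch pathway genes tested (median 0.19), her6 (51.3 and 55.8 CPM in basal-marked cells against 0.569 CPM, or 1 UMI, and 0), hey1 (1.91) and mib1 (1.15) were higher and notch3 (−2.65) and her9 (−1.05) lower. Of 6 proliferation genes tested, edgeR called 0 (median −0.22). The unadjusted edgeR p was under 0.05 for 1 of them, cks2 (log2 fold change −1.56).

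Against the mean of cells of other lineages krt8 was lower in epcam+ cells and the other 7 members higher. krt94 was nevertheless above its basal-marked and superficial-marked levels in fibroblast-marked cells, and in endothelial-marked and myeloid-marked cells of run 1. In myeloid-marked cells of run 2 krt94 lay between those 2 levels. It was found in 42 of 215 myeloid-marked cells of run 1 and 3 of 22 of run 2. The test set the mean of the basal-marked and superficial-marked sums against the mean of the non-epithelial classes, where 22.8% of 12264 tested genes were called higher and 4.78% lower. krt5 had a log2 fold change of 8.22 (SE 0.30), krtt1c19e 8.21 (SE 0.33), cyt1 6.76 (SE 0.59) and krt94 2.11 (SE 0.25). krt8 lay on the other side at −3.56 (SE 0.34; adjusted p = 1.24e-17 by edgeR with Benjamini-Hochberg adjustment). The fitted size of cyt1 depends in part on a small added count, since endothelial-marked cells of run 1 held 0 UMIs of it. krt4, krt97 and tp63 were also called higher. Most non-epithelial sums held 0 UMIs of krt4 and krt97. tp63 had 0 UMIs in leucophore-marked cells of both runs and in iridophore-marked and endothelial-marked cells of run 1. No size is therefore given for these genes. With 1 run left out, a value with no test, the log2 fold change ranged from 5.33 to 6.08 for cyt1, −3.49 to −2.16 for krt8 and 7.87 to 8.33 for krt5. In DESeq2 krt97 was not called (Benjamini-Hochberg adjusted p = 0.243).

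T or NK cell-marked cells gave low keratin levels and were taken as a stand-in for free RNA, whose level was not measured here. They held krt5 at 73.4 and 68.3 CPM, krt94 at 9.86 and 8.54 CPM, krtt1c19e at 5.48 and 8.54 CPM, krt8 at 29.6 and 0 CPM, tp63 at 1.1 and 0 CPM, and 0 UMIs of krt4 and krt97. For krt4 a level of 3 UMIs, the floor chosen here for a count of 0, would be 3.29 CPM in run 1 and 25.6 CPM in run 2. Keratins made up 0.0139% and 0.0102% of the UMIs of these cells. Against them alone, all 8 were higher in the mean of the basal-marked and superficial-marked sums, where 19.7% of genes were called higher. There krt8 reversed to a log2 fold change of 1.34 (SE 0.50; adjusted p = 0.0284 by edgeR with Benjamini-Hochberg adjustment). This does not hold for each class. In superficial-marked cells krt8 of run 1 lay below the T or NK cell-marked level, and cyt1, with 9 and 2 UMIs, lay near it.

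krt8 was above its epcam+ levels in every non-epithelial class summed here other than T or NK cell-marked cells. It stood at 3971 and 2680 CPM in fibroblast-marked cells, 3770 CPM in the 12 endothelial-marked cells of run 1, 2475 CPM in the 22 iridophore-marked cells of run 1, 1508 and 1903 CPM in myeloid-marked cells, 1336 CPM in the 1774 xanthophore-marked cells of run 1, and 436 and 236 CPM in leucophore-marked cells. Contrasts with T or NK cell-marked cells were added after the values were seen, and edgeR called krt8 higher in each of these classes with sums in both runs. In fibroblast-marked cells the log2 fold change was 7.24, where 20.5% of genes were called higher and 7.27% lower. In myeloid-marked cells it was 6.18 (12.8% of genes higher, 0.62% lower), in xanthophore-marked cells 5.74 with an SE of 0.60 (17.2% higher, 7.88% lower) and in leucophore-marked cells 3.60 with an SE of 0.54 (15.2% higher, 8.6% lower). On thinned counts 77.7% of xanthophore-marked cells of run 1 held a krt8 UMI, against 4.31% of T or NK cell-marked cells, and the highest 10% of cells held 37.2% of the UMIs, so the signal was broad there. The share was 33.1% and 40% in myeloid-marked and 46.7% and 32.3% in leucophore-marked cells, so most of these thinned cells held no krt8 UMI.

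The other keratin transcripts found beside krt8 differed among these cells, and pairing of the proteins was not measured. In xanthophore-marked cells krt18b stood at 1824 CPM and krt18a.1 at 301 CPM, and krt8 and krt18b together with krt18a.1 made up most keratin UMIs, with 51.3% from krt18b and 37.6% from krt8. In endothelial-marked cells of run 1 krt18a.1 stood at 2004 CPM, above krt18b at 459 CPM, and krt94 at 2547 CPM. krt94 was low in xanthophore-marked cells of run 1 and in leucophore-marked cells of run 2, at 27.0 and 24.7 CPM. krt5 in these pigment cells lay near the T or NK cell-marked level or below it, at 58.1 CPM in xanthophore-marked cells of run 1 and 35.3 CPM in leucophore-marked cells of run 2. It was called lower in leucophore-marked than in T or NK cell-marked cells (−1.39, SE 0.49; adjusted p = 0.0275 by edgeR with Benjamini-Hochberg adjustment).

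Fibroblast-marked cells held krt94 at 4004 and 10335 CPM and krt5 at 1932 and 5004 CPM, far above the T or NK cell-marked level (krt94 9.11, krt5 5.62 on the log2 scale, both called by edgeR). krt8 and krt94 were broad in these cells, krt8 in 97 of 100 and 35 of 36 thinned cells and krt94 in 95 of 100 and 35 of 36. krt5 was found in 32 of 136 and 14 of 38 cells, with 98.3% and 95.9% of its UMIs in the highest 10% of cells. They held 176 (80.6 to 481) and 320 (137 to 988) krt5 UMIs per krtt1c19e UMI. In T or NK cell-marked cells of run 1 the ratio was 13.4 (5.47 to 42.6), and in the epcam+ cells as a whole it was 6.87 and 4.78. In myeloid-marked cells of run 1, 197 of 315 krt5 UMIs lay in 1 cell.

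CRABP1+ cells, with at least 3 CRABP1 UMIs, had a keratin profile unlike either epidermal end. There were 133 in run 1 and 21 in run 2. High krt8 and krt94 were shared with fibroblast-marked cells. Over T or NK cell-marked cells, krt8 had a log2 fold change of 7.76 in CRABP1+ and 7.24 in fibroblast-marked cells, and krt94 had 9.67 and 9.11. Tests against epcam+ cells, here and below, used the mean of the basal-marked and superficial-marked sums on the log2 scale. Cells with neither marker were left out of that mean, and its classes lie far apart for cyt1 and krt97. By these tests krt8 and krt94 were higher in CRABP1+ cells and the other 6 members lower, where 17.8% of genes were called higher and 13.3% lower. krt8 stood at 5498 and 3062 CPM (fitted log2 fold change 6.43, SE 0.41; adjusted p = 8.6e-28 by edgeR with Benjamini-Hochberg adjustment). krt94, the most abundant keratin gene of these cells in run 2, stood at 7661 and 9454 CPM (3.79, SE 0.35; adjusted p = 2.23e-17). On thinned counts both genes were found in 99.2% and 88.9% of the cells.

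krt5 remained abundant in CRABP1+ cells, at 9205 and 9166 CPM, and was lower than in epcam+ cells by a log2 fold change of −1.32 (SE 0.37; adjusted p = 0.00274 by edgeR with Benjamini-Hochberg adjustment). This call was lost without the run as a block (adjusted p = 0.127), with another scaling (−1.21, adjusted p = 0.0508) and in DESeq2 (adjusted p = 0.292). krt5 was far above the T or NK cell-marked level (7.17, SE 0.54; adjusted p = 1.09e-22; 19.9% of genes called higher and 7.49% lower, or 27.4% in either direction). It was found in 63.1% and 66.7% of thinned cells, against 32 of 255 and 5 of 25 T or NK cell-marked cells, and in 62.3% and 66.7% krt5, krt8 and krt94 were found together.

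The keratin genes of the basal layer and tp63 were low in the same cells. krtt1c19e stood at 22.0 and 6.54 CPM (−7.01, SE 0.56), cyt1 at 12.9 and 0 CPM (−4.31, SE 0.62; −6.69 to −3.64 with 1 run left out, with no test), tp63 at 11.02 and 0 CPM (−3.85, SE 0.65; adjusted p = 4.11e-07 by edgeR with Benjamini-Hochberg adjustment) and krt4 at 1.84 and 0 CPM. krt97 had 0 UMIs in both runs, and set against 3 UMIs per run it was 55.6-fold and 3.93-fold lower than in all epcam+ cells. With CRABP1+ set at 1 UMI cyt1 reversed to a log2 fold change of 1.12. That cut brings in more cells and counts every epcam+ cell with at least 1 CRABP1 UMI as CRABP1+. The part of those cells in the reversal was not tested. At the main cut without doublet removal, cyt1 was at −0.998 and not called (adjusted p = 0.0730 by edgeR with Benjamini-Hochberg adjustment). CRABP1+ cells held 418 (280 to 652) and 1401 (387 to 11574) krt5 UMIs per krtt1c19e UMI.

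The krt5 of CRABP1+ cells was not limited to those with epcam. In the 106 and 21 cells with 0 epcam UMIs it stood at 8573 and 9166 CPM, with krt8 at 5659 and 3062 CPM, krt94 at 7925 and 9454 CPM and tp63 at 8.25 and 0 CPM. At 3 to 9 CRABP1 UMIs krt5 stood at 11251 and 6726 CPM, and at 10 and over at 7915 and 9784 CPM, without a common direction in the 2 runs. The 9 epithelial markers summed to 519 CPM in run 1, and all 9 were at 0 in run 2. Fibroblast markers summed to 1123 and 729 CPM over 9 genes, against 5614 and 3295 CPM in fibroblast-marked cells, 486 and 387 CPM in basal-marked cells and 6.6 and 0 CPM in T or NK cell-marked cells. Leucophore markers summed to 8.27 and 321 CPM, xanthophore markers to 141 and 9.81 CPM and myeloid markers to 522 and 111 CPM. The myeloid sum was cd74a alone, as the other 5 of the 6 markers were at 0 in both runs. In run 2, 3 of the 4 xanthophore markers were at 0, and in run 1, 2 of the 4 leucophore markers. The 3 basal markers that matched, of which itgb4 and ITGA2 cut the basal-marked class, summed to 164 and 81.8 CPM. Their part in the keratin levels was not tested.

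Among other keratins, krt18a.1 was higher in CRABP1+ than in epcam+ cells, at 819 and 958 CPM (6.24, SE 0.48), and krt18b too, at 342 and 255 CPM (4.35, SE 0.45). Fibroblast-marked cells held both genes as well. Mean krt18a.1 UMIs per thinned cell were 1.92 and 2.5 there against 1.62 and 2.11 in CRABP1+ cells, and mean krt18b UMIs 1.5 and 1.39 against 1.11 and 0.5. For the lists that follow, the share over all tested genes was 17.8% called higher and 13.3% lower. Of 6 hemidesmosome and basement membrane genes tested, 3 were higher in CRABP1+ than in epcam+ cells and 1 lower. Their median log2 fold change was 1.48 against 0.18 over all genes. pleca stood at 1199 and 1675 CPM, a log2 fold change of 2.60. itga6b, at 70.7 and 49.1 CPM, and itgb1a, at 10.1 and 9.81 CPM, were also higher, and itga3b was lower (−2.52). Of 10 desmosome and envelope genes, 2 were higher and 5 lower (median −2.99): ppl (−4.28), jupa (−3.54), perp (−3.14), a p63 target in mammals, dsc2l (−2.85) and tgm5l were lower, and s100a10b (1.42) and anxa1a (1.26) higher.

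Of 22 regulators, 3 were higher in CRABP1+ cells and 12 lower, tp63 among them (median −3.53, or −2.09 with genes at 0 UMIs set against 3 UMIs). Here too 17.8% of all tested genes were called higher and 13.3% lower. klf17, dlx4b, gata3 and foxq1a were called lower, with 0 UMIs in both CRABP1+ sums. klf4 (2.92), cebpa (1.13) and dlx5a, at 57.9 and 16.4 CPM, were higher. Of 12 Notch genes, 6 were lower (median −2.39, or −1.28 with such genes set against 3 UMIs), among them jag1b, a Notch ligand (−3.87), her9 (−2.90), numb (−2.50), notch1a and hey1, and 2 higher, her6 (2.40) and heyl. Of 12 proliferation genes, 5 were lower (median −2.11, or −1.37 likewise), led by mki67, with aurkb, cks2 (−4.04), RRM2 (−3.15) and mcm5 (−2.04). stmn1a, whose protein binds tubulin, stood at 1050 and 939 CPM and was higher, as was ccna2, at 9.18 and 19.6 CPM (10 and 6 UMIs).

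Over the 19 sums of class and run, the genes with a symbol whose log2 level was most like that of each member are given as a description, since the sums share 2 libraries. For krt8 these were krt18a.1 (Pearson's r = 0.978), and cd81a (0.953), among 6860 genes compared. For krt97 it was cgnb, a cingulin of tight junctions (0.996), for krt4 ATP8B1 (0.984) and ifngr1 (0.983), and for krt5 rbp4 (0.967), a retinol carrier. cyt1 was most like wnt9b (0.966), ltb4r2b (0.966) and FERMT1 (0.964), the latter encoding kindlin-1, which activates integrins. krtt1c19e was most like tmem238a (0.975), tp63 like klf5l (0.977), a Krüppel-like factor, and krt94, which had the least close neighbours, like uap1 (0.870) and tuft1a (0.861). Features without a symbol were closer in some cases and are not named.

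Over single epcam+ cells thinned to 2000 UMIs, cyt1 and krtt1c19e went together, with Pearson's r of log2 values of 0.44 over 865 cells of run 1 and 0.74 over 158 cells of run 2. krt4 and krt94 had r of 0.44 and 0.40. tp63 had no r beyond −0.11 to 0.17 with any other member, at a level where most cells held 0 UMIs of it.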

How the data were processed

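The authors deposited UMI counts per gene and barcode for both runs, made with Cell Ranger 7.1.0 per the submitters' processing notes; the sources used here give no genome build, annotation or strand setting. Run 1 held 4702 barcodes and 25236411 UMIs and run 2 held 614 and 6946744, with medians of 4044 and 8861 UMIs per barcode. Barcodes were kept with at least 500 UMIs, 300 genes and at most 20% mitochondrial UMIs over 13 features (4503 and 577). Scrublet's automatic threshold marked 22 and 1 barcodes, too few to have worked, so the highest 4% of scores were removed (168 and 24).

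Cells were classed by marker UMIs as described. CRABP1+ cells held at least 3 CRABP1 UMIs. Non-epithelial cells held 0 epcam and under 3 CRABP1 UMIs, and at least 3 UMIs over lineage marker lists, most of them from 1 list. Counts were summed per class and run where at least 10 cells were present, and tested with edgeR 4.0.16 (quasi-likelihood, TMM, filterByExpr; R 4.3.3, limma 3.58.1) with Benjamini-Hochberg adjustment over all genes. The epcam+ classes gave 6 sums with 2 residual degrees of freedom, and all classes gave 19 sums. The fit of krt5-rich cells alone used sums of at least 5 cells. The run is the block because every class is cut from the same 2 libraries. The SE is the absolute log2 fold change divided by the square root of F. Where a group held 0 UMIs the size depends on a small added count, and no fold is given unless set against 3 UMIs. Tested on simulated data for the basal-marked and superficial-marked comparison over 7798 genes, the fit called 15.9% of 69 genes changed by a log2 value of 1, 58.1% of 62 changed by 2 and 84.1% of 69 changed by 3, with 4 wrong calls. Likeness is Pearson's r of log2(CPM + 10) among genes of at least 50 CPM in a sum. DESeq2 1.42.0, Python 3.11.15, scanpy 1.11.5, numpy 2.4.6, pandas 2.3.3, scipy 1.17.1 and matplotlib 3.10.9 were also used.

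All 8 members are named, other keratins as counts with values for those over 50 CPM in basal-marked or superficial-marked cells (krt18a.1 and krt18b, below that level, were named after their values were seen), and up to 5 called genes per list and direction by size; 1 such result is not reported here. The members and lists were chosen with earlier results of these data known. The contrasts of cells with neither marker and against T or NK cell-marked cells, the krt5-poor set and the fits without the deep cell were added after values were seen. No sequence or coordinate is given.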

Additional observations from a re-analysis of the deposited data

How the results depend on the processing

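Between basal-marked and superficial-marked cells, 730 genes were called higher with no replicate block against 1236 with the run as a block, and 306 higher and 359 lower on counts thinned to 2000 UMIs, which leave fewer UMIs per gene, against 1236 and 947. krt5 changed direction with a class threshold of 3 UMIs (0.43), on thinned counts (0.068) and without the deep cell of run 2 (0.36), and tp63 with a threshold of 1 UMI (−0.085), none of them called. Against non-epithelial cells DESeq2 called 1660 genes higher and 1548 lower (edgeR 2793 and 586). With T or NK cell-marked cells as the only background 1489 genes were lower, and krt8 reversed to 1.34. For CRABP1+ cells DESeq2 called 1050 genes lower against 1634, and cyt1 reversed to 1.12 with CRABP1+ set at 1 UMI. That cut also counts every epcam+ cell with at least 1 CRABP1 UMI as CRABP1+. In the order of cells, 3 members were lower at 2 or more basal UMIs than at 0 in both runs when epcam+ was set at 1 UMI, against 5. The causes were not tested. The thinned fit also left out cells under 2000 UMIs and cut the classes anew on thinned marker UMIs. Other calls lost were cyt1 for CRABP1+ cells without doublet removal (−0.998, adjusted p = 0.0730 in edgeR) and krt97 for CRABP1+ cells in DESeq2 (−6.94, adjusted p = 0.403). Of 296 values of members under alternatives, 280 kept direction and call, 10 lost the call and 6 reversed.

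With 1 run left out, a value with no test, the log2 fold change between basal-marked and superficial-marked cells ranged from −0.64 to −0.01 for krt5, −0.30 to 0.69 for tp63, 8.81 to 9.54 for cyt1, 3.31 to 4.38 for krtt1c19e and −2.76 to −1.72 for krt4. Few superficial-marked cells in run 2 (12) and few UMIs of krt97, cyt1 and krt8 on their low side limit the precision of these log2 fold changes.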
